A study of Gallus gallus with 45 samples.

Results

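The comparison described here sets midbrain-level chick tissue of the 8 to 10 somite stages (8ss to 10ss), which holds emigrating neural crest and the dorsal neural tube, against the neural plate border and fold tissue of the 1 to 3 somite stages (1ss to 3ss). Libraries were assigned by the stage in their labels, which gave 10 late libraries (3 of 8ss, 4 of 9ss and 3 of 10ss) and 12 early libraries (4 each of 1ss, 2ss and 3ss), or 22 of the 45 bulk RNA-seq libraries of the series. All embryos were wild type (WT) and untreated, and each library pooled the dissected domain of several embryos. The 1ss libraries carry the stage name HH7 in the tables. The dissected piece differed by stage: at 1ss to 3ss it was the border of the open plate and the tips of the rising folds, and at 8ss to 10ss it reached from the dorsal midline of the tube out to the front of the migrating cells. Stage and dissected piece cannot be told apart in this comparison, and in bulk tissue fewer cells of a type and less RNA per cell cannot be told apart. The labels do not say whether the libraries of a stage came from embryos collected on different days, so the p-values measure the spread between these libraries. Early collections at HH5 and HH6 entered no fold change.

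The neural crest arises at the border between the neural plate and the future epidermis. Border factors of the Pax, Zic, Msx and TFAP2 families act first, followed by crest specifiers such as FOXD3, ETS1 and the SoxE factors. As the neural folds close, cranial crest cells lose epithelial adhesion, undergo an epithelial to mesenchymal transition (EMT) and leave the dorsal tube, whose midline then becomes the roof plate, a source of Wnt and BMP signals.

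The early libraries held 17809306 to 26569150 reads in genes and the late libraries 17509733 to 29744543. Principal components were computed over the 22 libraries from the 500 most variable genes, and the first took 73.5% of the variance. The early libraries scored from -21.5 to -15.7 on it and the late libraries from 18.6 to 24.7. The second component took 5.54% and set replicate 4 of 1ss, 2ss and 3ss and replicate 3 of 8ss apart from the rest of their pools. Replicate 2 of 8ss was high in yolk sac and liver genes, and replicate 1 of 10ss in mesoderm and vessel genes, as described with those lists. No 2 libraries of a stage agreed within sampling noise.

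Of 18525 genes tested, 1817 (9.81%) were called higher at 8ss to 10ss and 1475 (7.96%) lower, by the quasi-likelihood test of edgeR, with p-values adjusted over all genes by the Benjamini-Hochberg method. A call required an adjusted p below 0.05 and a log2 fold change beyond 0.75 in size (1.68-fold), and all adjusted p-values in the text are from this test. The median log2 fold change of all genes was 0.02. The median called rise was 1.60 on the log2 scale and the median called fall was -1.35. Changes beyond 4-fold were found for 696 genes that rose and 401 that fell, and beyond 16-fold for 105 and 44. In 673 genes (3.63%) the values of the pools did not overlap, and 597 of these were called, 318 higher and 279 lower. Of the 1817 genes that rose, 1564 (86.1%) had each of the 3 late stage means above each of the 3 early ones, and of the 1475 that fell, 1366 (92.6%) had each late mean below each early one. This order was counted only in genes called from the same libraries, and its share over all genes was not computed. In 297 of the genes called higher and 157 of those called lower, every library of one pool had no more than 3 reads, and the fold change of such a gene depends on the prior count.

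The 10 largest rises among well detected genes included 4 Wnt ligands, 2 factors of the midbrain-hindbrain boundary and the crest factor SOX10. Well detected means a mean of at least 5 CPM (counts-per-million, after TMM scaling of library sizes) over the 22 libraries, a gene symbol and no overlap between the pools. CA12, a membrane carbonic anhydrase, lay between 0 and 0.401 CPM in the early libraries (median 0.0403) and between 16.6 and 45.5 CPM in the late ones (median 20.7). Its highest early library, replicate 4 of 3ss, had 9 reads and its lowest late library 362. The log2 fold change was 8.51 ± 0.67 (SE, adjusted p = 3.71e-14), or 9.31 without replicate 4 of 3ss. WNT3A, a Wnt ligand of the dorsal neural tube, ranged from 0.246 to 3.52 CPM early (median 1.06) and from 150 to 462 CPM late (median 233). All 4 libraries of 9ss were above all 3 of 8ss and all 3 of 10ss, and the early libraries were all near the bottom of the scale. Its log2 fold change was 7.79 ± 0.64 (SE, adjusted p = 1.04e-13).

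SOX10, the SoxE factor that marks crest cells as they leave the tube, had 5.4 to 19.2 CPM in the early libraries (median 11.1) and 215 to 633 CPM in the late libraries (median 288). The highest late value was in replicate 3 of 8ss. Every library of 9ss (215 to 267 CPM) was below every library of 8ss (309 to 633 CPM), and those of 10ss (266 to 431 CPM) overlapped both. The rise was 4.87 ± 0.36 on the log2 scale (SE, adjusted p = 4.48e-15). The other large rises were the Wnt ligands WNT2B (log2 fold change 5.70), WNT1 (4.85) and WNT8B (4.82), the midbrain-hindbrain homeobox factors EN2 (5.34) and PAX2 (4.92), the helix-loop-helix repressor BHLHE40 (5.03) and the phosphatase inhibitor PPP1R1C (5.08), with adjusted p from 1.93e-14 to 1.83e-10. WNT2B was lowest in 2 libraries of 8ss (3.85 and 4.25 CPM) and highest in replicate 1 of 10ss (38.7 CPM).

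The 10 largest falls under the same rule included genes of the anterior plate, of retinoic acid clearance and of activin and BMP antagonism. HOXB1 had a larger fall (log2 fold change -6.07, adjusted p = 8.17e-08), but its pools overlapped. It had 0 to 51.9 CPM early (means of 20.7 CPM at 1ss and 1.6 at 3ss) and at most 0.325 CPM late. AGRP, an antagonist of melanocortin receptors, went from 4.5 to 34.8 CPM early (median 13.6) to 0.093 to 0.825 CPM late (median 0.271). Both of its highest early libraries were of 1ss, and its late values rested on 2 to 18 reads. The log2 fold change was -5.50 ± 0.39 (SE, adjusted p = 1.46e-15). CYP26A1, which degrades retinoic acid, had 154 to 401 CPM early (median 291) and 2.55 to 15.4 CPM late (median 4.75). The early libraries all stood far above the late ones, and the change was -5.47 ± 0.34 (SE, adjusted p = 9.98e-17). FST, the secreted activin and BMP antagonist follistatin, had 200 to 516 CPM early (median 387) and 16 to 55.3 CPM late (median 33), a change of -3.43 ± 0.23 (SE, adjusted p = 2.2e-16). Further falls were those of the cyclin gene CCNA1 (log2 fold change -5.47), the ligand WNT2 (-4.71), the NADPH oxidase organizer NOXO1 (-4.02), the frontonasal homeobox factor ALX1 (-3.92), the glucosidase MGAM (-3.77), the forebrain factor SIX3 (-3.72) and SHISA2 (-3.45), a regulator of FGF and Wnt receptor maturation, with adjusted p from 1.21e-16 to 3.14e-08.

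**Figure D1:**
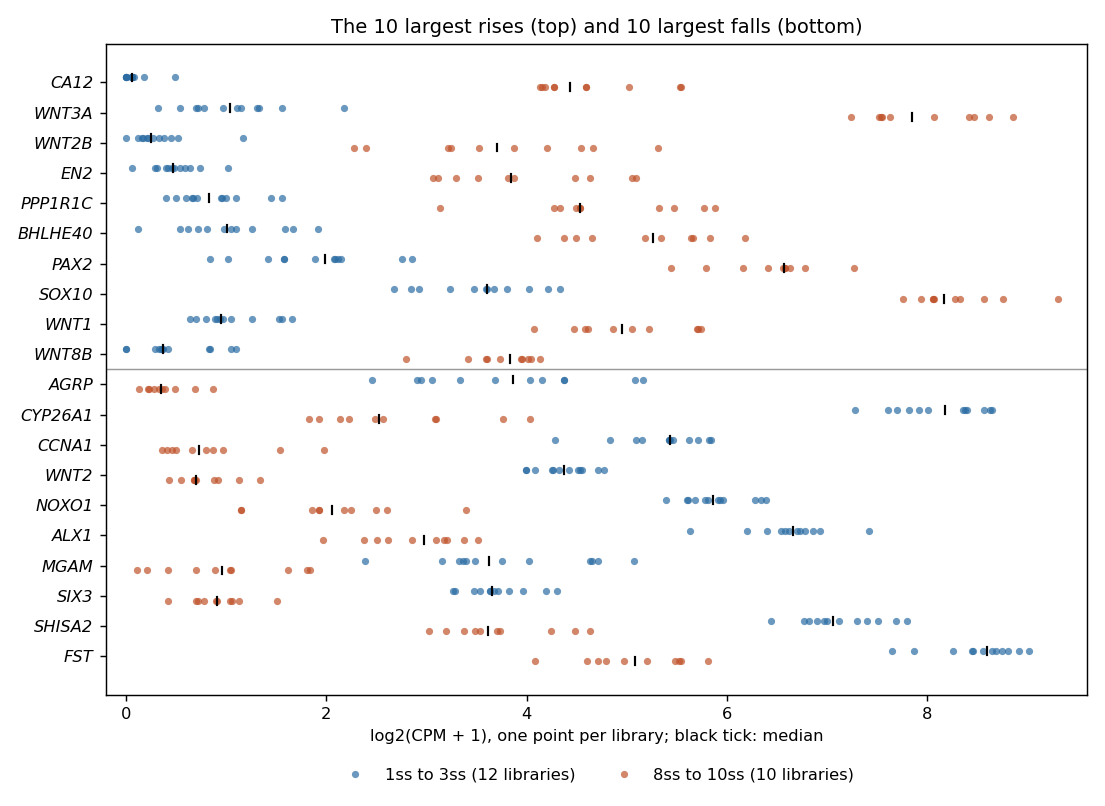
Level of the 10 largest rises (upper block) and 10 largest falls (lower block) in each library, on a log2(CPM + 1) axis, with 1 point for each of the 12 libraries of 1ss to 3ss (blue) and the 10 of 8ss to 10ss (orange) and a black tick at each pool's median. The pools do not overlap for any of the 20 genes, which the rule for choosing them required; WNT3A spans 0.246 to 3.52 CPM against 150 to 462 CPM.

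Of the 15 border factors listed, 4 were called higher (26.7%, against 9.81% of all genes), 3 lower (20%, against 7.96%) and 8 not. Their median log2 fold change was 0.01 beside 0.02 for all genes. PAX3, a paired-box factor of the border and dorsal tube, rose from 4.68 to 13.4 CPM (median 9.93) to 25.5 to 36.0 CPM (median 28.8). The late libraries were close together and all above the early ones, and the change was 1.62 ± 0.17 (SE, adjusted p = 7.13e-11). Its paralogue PAX7 was not called. PAX7 had 13.7 to 42.1 CPM early (median 26.4) and 19.5 to 58.2 CPM late (median 27.9), with a log2 fold change of 0.27 ± 0.19 (SE, adjusted p = 0.294). The stage means of PAX7 passed through a maximum between the pools, from 17.1 CPM at 1ss to 73.2 at 6ss and back to 22.6 at 10ss. MSX2 (log2 fold change 2.14) and MSX1 (1.29), homeobox targets of BMP signalling, and IRX1 (0.99), an Iroquois factor, were the other rises. PRDM1, a zinc finger repressor that acts at the border in zebrafish, fell from 29.7 to 98.5 CPM (median 63.3) to 6.94 to 21.1 CPM (median 11.7). Its pools did not overlap, and the change was -2.25 ± 0.23 (SE, adjusted p = 7.27e-11). ZIC1 (-1.03), a zinc finger factor of the neural plate and its border, also fell. The factors that were not called included TFAP2A (19.5 to 43.5 CPM early and 19.8 to 46.2 late, log2 fold change 0.06, SE 0.14), DLX5 (-0.20, SE 0.14) and GBX2 (-0.26, SE 0.36). TFAP2A means were likewise higher in between, at 65.3 CPM at 6ss.

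Of the 18 crest specifiers, 13 were called higher (72.2%, against 9.81% of all genes), and the median log2 fold change was 2.02. None was called lower by edgeR or by DESeq2, and 0 were lower at an unadjusted p below 0.05. TFAP2B rose from 12 to 92.1 CPM (median 37.9) to 210 to 520 CPM (median 334). Its early values climbed with stage, from a mean of 19.5 CPM at 1ss to 76.1 at 3ss, and stayed below all late values. The change was 2.98 ± 0.28 (SE, adjusted p = 7.54e-12). FOXD3, the forkhead factor of premigratory crest, had 0 to 0.48 CPM early (median 0.273) and 0.92 to 4.83 CPM late (median 2.57), a change of 3.55 ± 0.43 (SE, adjusted p = 5.7e-09). Its highest stage mean, 7.72 CPM, was at 7ss, and the late means were 3.93, 2.30 and 2.09 CPM. NR2F2, an orphan nuclear receptor, rose from 31.5 to 85.8 CPM (median 62.2) to 219 to 745 CPM (median 530), with the 9ss and 10ss means (636 and 558 CPM) above that of 8ss (291 CPM). The change was 3.10 ± 0.20 (SE, adjusted p = 2.39e-16).

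SOX9, the SoxE factor that precedes SOX10 in the premigratory crest, had 1.34 to 3.57 CPM early (median 2.46) and 4.61 to 29.2 CPM late (median 11.5). The lowest late libraries were 2 of 10ss, the highest was 1 of 8ss, and no late library fell into the early range. The change was 2.46 ± 0.35 (SE, adjusted p = 2.33e-07). ETS1, an Ets factor of the cranial crest, had 38.7 to 76.6 CPM early (median 51.1) and 99.9 to 554 CPM late (median 200), a change of 2.19 ± 0.31 (SE, adjusted p = 2.02e-07). The 9ss libraries alone spread from 117 to 554 CPM, and the highest of them was replicate 1. SNAI2, the zinc finger repressor of cadherin genes at EMT, had 39.6 to 136 CPM early (median 77.1) and 96.3 to 352 CPM late (median 205). Here the pools overlapped, since 2 libraries of 9ss and replicate 2 of 10ss were below the highest library of 3ss, and the change was 1.41 ± 0.23 (SE, adjusted p = 3e-06). The retinoid receptor RXRG (log2 fold change 2.91), the growth regulator MYC (2.70), LMO4 (1.85), SOX8 (1.54) and ID2 (1.18), an inhibitor of helix-loop-helix factors, were also called higher, with NR2F1 (2.42), which stayed at or below 0.516 CPM in every library. MYCN (0.54, adjusted p = 0.0194) and SOX5 (0.50, adjusted p = 0.0132) passed the adjusted p and not the fold threshold, and MYB (-0.38, adjusted p = 0.18) and CSRNP1 (0.57, adjusted p = 0.119) passed neither.

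**Figure D2:**
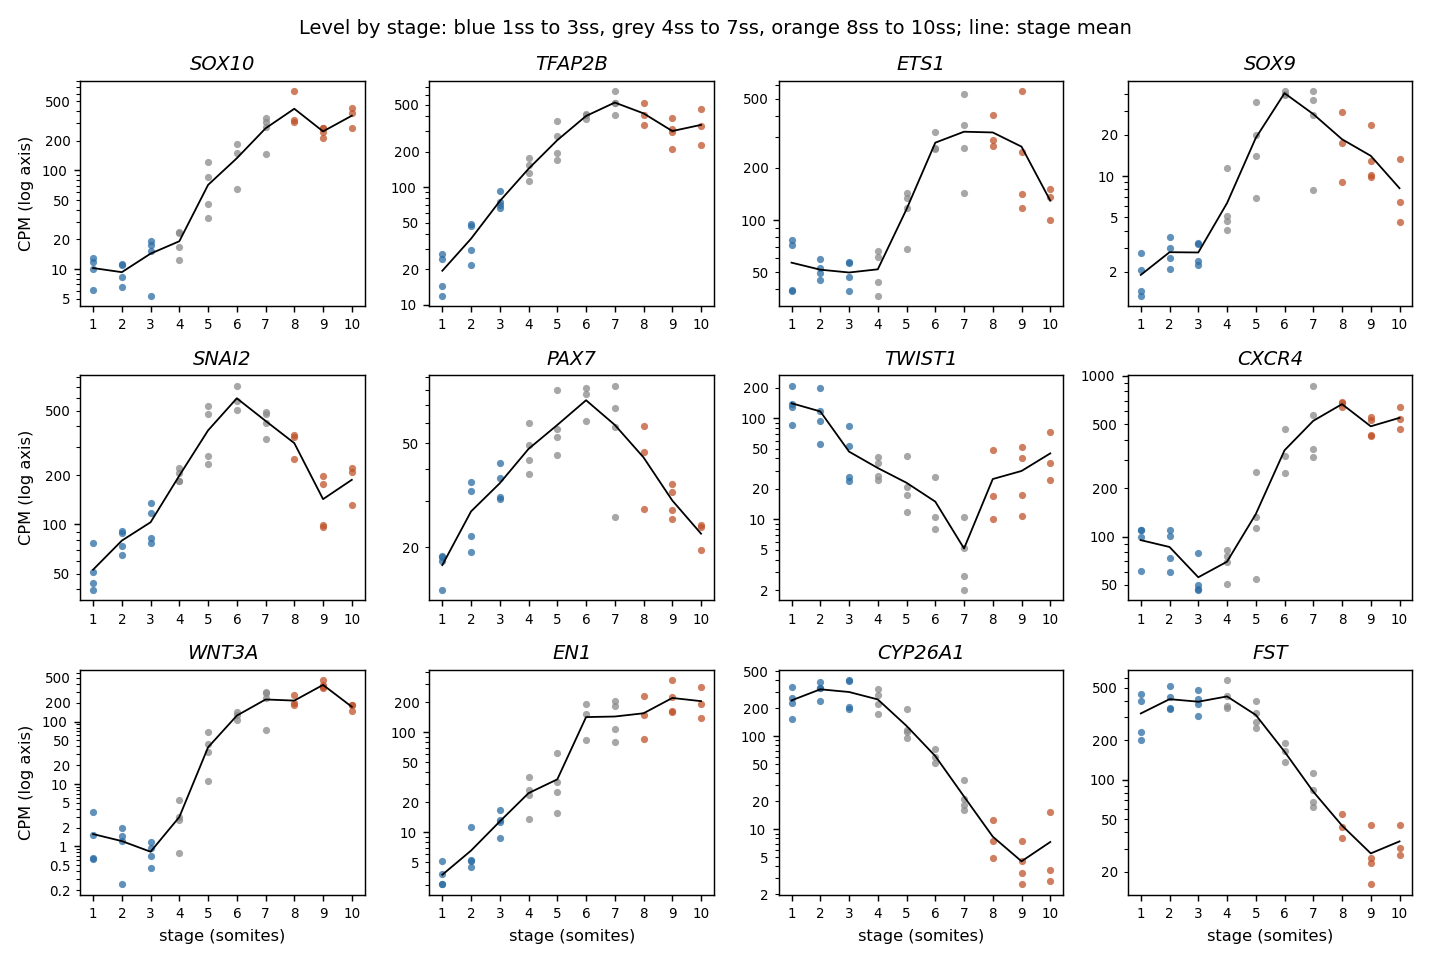
Level in each library at 1ss to 10ss on log CPM axes for 12 genes, with the libraries of 1ss to 3ss in blue, those of 4ss to 7ss, which the comparison did not use, in grey, those of 8ss to 10ss in orange, and a line through the stage means. SOX10, TFAP2B, CXCR4, WNT3A and EN1 stay high to 10ss, SNAI2, SOX9 and PAX7 have their highest mean at 6ss, and CYP26A1 and FST fall from about 4ss onwards.

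Genes of EMT and migration changed in both directions, with a median log2 fold change of 0.26. Of the 27 tested, 11 were called higher (40.7%, against 9.81% of all genes), 5 lower (18.5%, against 7.96%) and 11 not. The rises included CD44, the hyaluronan receptor, which had 0.0371 to 0.956 CPM early (median 0.175) and 0.369 to 8.84 CPM late (median 4.06). The ranges overlapped at their edges, and the change was 4.03 ± 0.51 (SE, adjusted p = 1.41e-08). MMP2, a gelatinase of migrating crest, rose from 0.774 to 3.99 CPM to 5.58 to 16.3 CPM without overlap (log2 fold change 2.31, adjusted p = 7.68e-10). ITGB3, the beta subunit of a vitronectin receptor, rose from 25.6 to 45.2 CPM (median 34.5) to 67.9 to 164 CPM (median 105) without overlap, a change of 1.68 ± 0.16 (SE, adjusted p = 5.19e-12). Smaller rises were called for the matrix glycoprotein TNC (1.21), the repressor ZEB1 (1.13) and the intermediate filament gene VIM (0.84).

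FN1, which encodes fibronectin, the matrix protein on which crest cells move, fell from 93.1 to 170 CPM (median 149) to 31.8 to 76.5 CPM (median 48.0). Every late library was below every early one, the stage means held between 141 and 176 CPM until 6ss and were 91.7 CPM at 7ss, and the change was -1.47 ± 0.13 (SE, adjusted p = 2.22e-12). TWIST1, a helix-loop-helix factor of head mesenchyme, had 24.1 to 209 CPM early (median 89.4) and 9.98 to 73.6 CPM late (median 30.4). The pools overlapped, its highest late library was replicate 1 of 10ss, and the change was -1.62 ± 0.36 (SE, adjusted p = 0.000491). Its stage mean was lowest at 7ss (5.16 CPM) and 44.8 CPM at 10ss. Within the early pool, TWIST1 had 84.7 to 209 CPM at 1ss and 24.1 to 83.6 CPM at 3ss, beside 24.5 to 73.6 CPM at 10ss. SNAI1 was not called, with 11.4 to 51.8 CPM early and 16.7 to 74.9 late (log2 fold change 0.43, adjusted p = 0.229). SNAI1 and TWIST1 are also in the mesoderm list. ZEB2 passed the adjusted p but not the fold threshold (-0.63, SE 0.17, adjusted p = 0.00332). The not-called members further included ITGB1 (-0.24), RHOA (0.25), RHOB (0.63), SPARC (0.26), ADAM10 (0.25) and ADAM12 (-0.40).

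Of 20 cadherin genes, 4 were called higher (20%, against 9.81% of all genes) and 8 lower (40%, against 7.96%), with a median of -0.13. CDH2 (N-cadherin), the adhesion protein of the neural tube, had 14.4 to 41.3 CPM early (median 28.5) and 41.0 to 91.9 CPM late (median 54.2). Only the edges of the ranges touched, and the change was 1.02 ± 0.15 (SE, adjusted p = 4.18e-07). CDH1 (E-cadherin), the adhesion protein of epithelial ectoderm, had 8.85 to 17.6 CPM early (median 11.4) and 2.97 to 8.03 CPM late (median 6.56), with no overlap and a change of -0.95 ± 0.15 (SE, adjusted p = 2.81e-06). CDH11, a cadherin of mesenchyme, fell from 69.8 to 122 CPM (median 103) to 19.4 to 42.2 CPM (median 30.0), also without overlap (-1.68 ± 0.14, SE, adjusted p = 8.3e-14). CDH7, a cadherin of migratory crest, rose by 0.99 (SE 0.24, adjusted p = 0.00103), whereas CDH6, expressed in premigratory crest, fell from 5.52 to 15.6 CPM (median 10.1) to 1.98 to 14.0 CPM (median 4.89), with overlap (-0.89, SE 0.27, adjusted p = 0.00883). The CDH6 stage mean was highest in between, at 23.3 CPM at 5ss. CDH20 (-2.47), CDH9 (-2.19) and CDH8 (-1.73) were also called lower, and CDH8 was at -2.36 without replicate 2 of 10ss.

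Of 27 matrix genes listed, 5 rose and 5 fell (18.5% each, against 9.81% and 7.96% of all genes). Of 33 collagen genes, 10 rose (30.3%) and 4 fell (12.1%, nearer the share of all genes). COL5A1, a fibrillar collagen, rose from 27.2 to 143 CPM (median 98.9) to 225 to 607 CPM (median 367) without overlap (2.03 ± 0.25, SE, adjusted p = 1.27e-08). The chains COL9A3 (log2 fold change 4.42) and COL9A1 (2.27) of the cartilage collagen type IX and COL2A1 (1.63) of type II rose without overlap. COL2A1 had 5.92 to 13.3 CPM early and 14.9 to 33.1 CPM late. HAPLN1, which links hyaluronan to proteoglycans, fell from 140 to 296 CPM (median 203) to 28.4 to 72.0 CPM (median 42.8). No late library reached the lowest early one, and the change was -2.16 ± 0.16 (SE, adjusted p = 3.43e-15). DCN, the small proteoglycan decorin, went from at most 0.509 CPM to 0.794 to 12.8 CPM (log2 fold change 5.67, adjusted p = 2.66e-11). COL13A1 (-2.69), COL14A1 (-1.44) and the axon guidance matrix protein SPON1 (-1.30) fell, while COL1A1 (0.20, adjusted p = 0.486) was not called.

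Among 39 guidance and growth factor receptors and ligands, the median was -0.06. Of them, 6 were called higher (15.4%, against 9.81% of all genes) and 8 lower (20.5%, against 7.96%). CXCR4, the chemokine receptor of migrating crest cells, had 46.5 to 110 CPM early (median 76.3) and 423 to 683 CPM late (median 547). The 3 libraries of 8ss were the highest, the lowest late library was still far above the highest early one, and the change was 2.82 ± 0.28 (SE, adjusted p = 4.57e-11). The semaphorin co-receptor NRP2 rose from 3.75 to 10.3 CPM to 11.8 to 21.8 CPM without overlap (1.15, adjusted p = 1.65e-06), with the plexin PLXNA4 (1.72) and the semaphorin SEMA3D (1.19). ROBO2, a Slit receptor, fell from 208 to 427 CPM (median 273) to 77.0 to 195 CPM (median 132) without overlap (-1.31 ± 0.18, SE, adjusted p = 1.31e-07). The ligand EFNB2 (-2.37), PLXNA2 (-1.26) and KIT (-1.30), the receptor of melanoblasts, were called lower as well, and SLIT1 (0.26) and EPHB1 (-0.12) were not called.

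Of 22 genes of crest derivatives (median 0.32), 7 were called higher (31.8%, against 9.81% of all genes) and 4 lower (18.2%, against 7.96%). Without replicate 2 or 3 of 8ss or replicate 3 of 10ss, 2 were called lower. FABP7, a fatty acid binding protein of glial precursors, rose from 80.5 to 223 CPM (median 135) to 232 to 686 CPM (median 484) without overlap (1.73 ± 0.16, SE, adjusted p = 3.78e-12). ALX1, which directs development of the frontonasal mesenchyme, fell from 48.7 to 170 CPM (median 100) to 2.9 to 10.4 CPM (median 6.9), and its late libraries were all low (-3.92 ± 0.27, SE, adjusted p = 8.86e-16). The pigment cell genes MITF (-0.33, adjusted p = 0.123) and PMEL (-0.34, adjusted p = 0.308) were not called.

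Of 26 forebrain and midbrain factors (median 0.00), 7 were called higher (26.9%, against 9.81% of all genes) and 8 lower (30.8%, against 7.96%). The largest rises were those of EN2, PAX2, EN1 and PAX5, of the midbrain and its boundary with the hindbrain, and the largest falls those of SIX3, HESX1, LHX5 and DMBX1. EN1, an Engrailed factor of the midbrain, had 3.01 to 16.6 CPM early (median 5.24) and 85.9 to 331 CPM late (median 177). Its early values were lowest at 1ss and highest at 3ss, the pools did not overlap, and the change was 4.67 ± 0.39 (SE, adjusted p = 1.97e-13). PAX2 went from 0.79 to 6.24 CPM (median 2.97) to 42.4 to 153 CPM (median 94.1), and PAX5, its paralogue, from 0 to 2.06 CPM to 0.453 to 13.2 CPM (3.41, adjusted p = 1.69e-06). HESX1, a repressor of the anterior plate, fell from 33.0 to 68.3 CPM (median 50.5) to 4.71 to 9.82 CPM (median 7.03), with no overlap and a change of -2.82 ± 0.28 (SE, adjusted p = 1.89e-11). SIX3 fell from 8.62 to 18.7 CPM to 0.34 to 1.85 CPM (-3.72, adjusted p = 6.04e-16), LHX5 by 1.40 and DMBX1, a factor of the diencephalon and midbrain, by 1.08. LMX1B was not called (-0.24, adjusted p = 0.326).

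Of 16 roof plate and dorsal tube genes (median 1.05), 8 rose (50%, against 9.81% of all genes) and 2 fell (12.5%, against 7.96%). WNT1 rose from 0.563 to 2.16 CPM (median 0.935) to 15.9 to 52.4 CPM (median 30.2), and WNT4 from 2.64 to 11.5 CPM (median 7.01) to 67.9 to 278 CPM (median 159). Neither overlapped, and the WNT4 change was 4.48 ± 0.38 (SE, adjusted p = 2.19e-13). The Wnt agonist RSPO3 went the other way, from 14.4 to 56.5 CPM to 8.74 to 14.6 CPM (-1.65, adjusted p = 7.57e-09), and so did the ligand BMP4 (-1.09, adjusted p = 8.3e-05). DRAXIN, a secreted Wnt antagonist of the cranial crest, was not called (0.55, adjusted p = 0.0452), and its stage means peaked in between, at 714 CPM at 6ss against 105 CPM at 1ss and 144 CPM at 10ss.

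In the neural plate list of 20 genes, 8 rose (40%, against 9.81% of all genes) and 2 fell (10%, near 7.96%). The falls were those of SFRP2 and SOX2, and the median was 0.34. SOX2 lay at the fold threshold, as described with the stem cell genes. HES5, a Notch effector of neural progenitors, had 0 to 3.01 CPM early (median 0.431) and 3.39 to 30.6 CPM late (median 13.9). Its 10ss mean (26.5 CPM) was above those of 8ss and 9ss (10.4 and 11.1 CPM), and the change was 4.38 ± 0.54 (SE, adjusted p = 8.33e-09). PRTG, a membrane protein of the early neural tube, rose from 487 to 1091 CPM (median 911) to 1345 to 3163 CPM (median 2253) without overlap (1.33 ± 0.19, SE, adjusted p = 2.63e-07). SOX1, a SoxB1 factor, rose by 1.48 (adjusted p = 0.000292), with 3.23 to 18.1 CPM early and 7.6 to 65.3 CPM late. SFRP2, a secreted Wnt antagonist, fell from 429 to 695 CPM (median 589) to 133 to 213 CPM (median 176), and its late libraries were all far below the early ones (-1.67 ± 0.15, SE, adjusted p = 2.22e-12).

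Of 22 neuronal genes (median 0.26), 5 were called higher (22.7%, against 9.81% of all genes) and 4 lower (18.2%, against 7.96%). Without replicate 3 of 8ss or replicate 3 of 10ss, 3 were called higher. EBF3, a helix-loop-helix factor of early neurons and head mesenchyme, fell from 60.0 to 168 CPM (median 136) to 5.04 to 32.5 CPM (median 11.5), without overlap (-3.10 ± 0.28, SE, adjusted p = 2.22e-12). EBF2 (-1.52) and the microtubule regulator STMN2 (-1.24) were also called lower, whereas MAPT (1.06) and the RNA-binding protein gene ELAVL4 (0.82) were called higher. DCX (0.02, adjusted p = 0.935) and NEFM (0.22, adjusted p = 0.581), genes of migrating and differentiated neurons, were not called.

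Of 54 Wnt pathway genes (median 0.29), 17 were called higher (31.5%, against 9.81% of all genes) and 12 lower (22.2%, against 7.96%). The rises were led by the ligands WNT3A, WNT2B, WNT1 and WNT8B and, among the listed genes, the falls by WNT8A (log2 fold change -4.78) and the antagonists DACT1 (-2.51), SFRP5 (-2.41) and SFRP1 (-2.28). The ligand WNT2 (-4.71) is not in the list. SFRP1 had 43.0 to 122 CPM early (median 70.7) and 9.22 to 30.7 CPM late (median 15.1), and the pools did not overlap (SE 0.22, adjusted p = 9.8e-12). The receptor FZD3 passed the adjusted p but not the fold threshold (0.67, adjusted p = 0.000164).

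Of 39 BMP and TGF-beta genes (median 0.12), 11 rose (28.2%, against 9.81% of all genes) and 7 fell (17.9%, against 7.96%). Both directions held secreted antagonists. NOG, the BMP antagonist noggin, had 1.6 to 6.66 CPM early (median 2.32) and 5.21 to 22 CPM late (median 13.4), a change of 2.14 ± 0.23 (SE, adjusted p = 4.4e-10), and the modulator BMPER (3.78) also rose, in contrast to FST. The BMP response gene ID4 rose by 2.33 (adjusted p = 4.46e-07). The nodal-related ligand gene GDF3 fell from 15.9 to 42.7 CPM to 5.0 to 10.9 CPM without overlap (-1.92, adjusted p = 3.83e-12). ACVR2B, an activin receptor, was not called (0.13, adjusted p = 0.599).

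Of 30 FGF genes (median 0.09), 7 rose (23.3%, against 9.81% of all genes) and 4 fell (13.3%, against 7.96%). FGFR2 fell from 51.7 to 95.8 CPM (median 75.1) to 12.8 to 31.1 CPM (median 17.9) without overlap (-1.91 ± 0.15, SE, adjusted p = 4.65e-14), whereas FGFR1 was not called (0.01, SE 0.10, adjusted p = 0.959). SPRY2, a feedback inhibitor of the pathway, rose from 351 to 1457 CPM (median 799) to 1410 to 5287 CPM (median 2346). Its ranges overlapped only at the edge (1.68 ± 0.25, SE, adjusted p = 5.22e-07). The ligands FGF8 (1.89) and FGF18 (1.75), both expressed at the midbrain-hindbrain boundary, and the membrane protein FLRT3 (1.71) rose, and the ligand FGF19 fell (-3.58, adjusted p = 9.51e-08), from 0.842 to 15.5 CPM to 0.0405 to 1.21 CPM.

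Of 23 Notch genes (median 0.48), 10 rose (43.5%, against 9.81% of all genes) and 1 fell (4.35%, against 7.96%). Without replicate 1, 2 or 3 of 3ss or replicate 3 of 10ss, 2 fell. The ligand JAG2 rose from 0.451 to 2.09 CPM (median 0.967) to 4.08 to 8.25 CPM (median 6.04), and the effector HEYL from 0.267 to 3.60 CPM (median 1.16) to 4.74 to 11.7 CPM (median 8.70). Neither gene's pools overlapped, with changes of 2.57 ± 0.27 (SE, adjusted p = 1.37e-10) and 2.76 ± 0.31 (SE, adjusted p = 7.46e-10). The receptor NOTCH1 was not called (0.48, adjusted p = 0.0227).

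In the retinoic acid list (median -0.27), 2 of 18 genes rose (11.1%, near 9.81% of all genes) and 5 fell (27.8%, against 7.96%). Besides CYP26A1, the second degrading enzyme CYP26C1 fell from 4.47 to 13.4 CPM to 1.42 to 4.25 CPM (-2.01, adjusted p = 1.21e-10), the retinaldehyde reductase DHRS3 by 2.70 and the receptor RARB by 1.49. RARB had 23.7 to 57.9 CPM early and 6.40 to 19.8 CPM late. RXRG was the retinoid receptor that rose. Of 13 Hedgehog genes (median 0.66), 3 rose (23.1%, against 9.81% of all genes). They were GLI3, a Gli factor that acts mostly as a repressor, from 17.2 to 39.9 CPM to 50.7 to 80.8 CPM without overlap (1.22, adjusted p = 1.1e-09), the co-receptor CDON (1.19) and the inhibitor SUFU (0.90). None was called lower by edgeR or DESeq2, and 1 was lower at an unadjusted p below 0.05. GLI2, another Gli factor, passed the adjusted p but not the fold threshold (-0.48, adjusted p = 0.00954). It had 2012 to 4778 CPM early (median 3860) and 1970 to 3305 CPM late (median 2548). The summed level of the Hedgehog list had a median of 3989 CPM early and 2736 CPM late. Without replicate 1 of 9ss, 1 Hedgehog gene was called lower.

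Of the 14 stem cell genes that the study followed (median -0.71), 6 were called lower (42.9%, against 7.96% of all genes) and 8 not. None was called higher by edgeR or DESeq2, and 0 were higher at an unadjusted p below 0.05. NANOG had 3.54 to 13.7 CPM early (median 5.93) and 0.418 to 2.72 CPM late (median 1.22). The late values rested on 12 to 54 reads, the pools did not overlap, and the change was -2.33 ± 0.32 (SE, adjusted p = 1.4e-07). Its stage means were between 5.79 and 8.00 CPM from 1ss to 5ss and between 0.70 and 2.14 CPM from 6ss on. POU5F3, listed in the table as Pou5f3, the avian PouV factor, fell from 6.92 to 16 CPM (median 10.9) to 1.88 to 5.41 CPM (median 3.65). It had no overlap either (-1.60 ± 0.17, SE, adjusted p = 2.69e-10), but its means declined stepwise, from 13.8 CPM at 1ss to 8.73 at 3ss and 4.41 at 5ss.

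KLF4 was at 0.0421 to 0.445 CPM early (1 to 10 reads) and 0 to 0.283 CPM late (0 to 7 reads), with a change of -1.58 ± 0.51 (SE, adjusted p = 0.014). SALL4, a zinc finger factor of stem cells, fell from 145 to 198 CPM (median 183) to 49.1 to 76.2 CPM (median 61.4), and its pools were each narrow and far apart (-1.52 ± 0.11, SE, adjusted p = 2.69e-15). SALL1 fell by 1.47 (adjusted p = 4.5e-06), from 468 to 1924 CPM to 238 to 525 CPM. SOX2 had 2.88 to 6.64 CPM early and 1.64 to 4.30 CPM late, a log2 fold change of -0.75 at the threshold (adjusted p = 0.00647). Its call was lost in 11 of the 22 fits that left out 1 library each: replicate 4 of 1ss, replicate 4 of 2ss, replicates 1, 3 and 4 of 3ss, replicates 1, 2 and 3 of 8ss, replicate 1 of 9ss and replicates 1 and 2 of 10ss, with values from -0.75 to -0.68. LIN28A lay just short of the threshold at -0.74 (adjusted p = 4.5e-07) and was called in 8 of those fits, without replicate 3 of 1ss, replicate 2 or 3 of 2ss, replicate 2 of 3ss, replicate 1 or 3 of 8ss, replicate 1 of 9ss or replicate 3 of 10ss, at -0.84 to -0.75. SMAD1 passed the adjusted p only (-0.68, adjusted p = 7.29e-07), and LIN28B (-0.37), STAT3 (0.09), TCF3 (-0.10), ESRRB (-0.25), KLF2 (0.31) and FOS (0.77) had adjusted p from 0.122 to 0.762. In a wider list of 21 other stem cell and germ line genes, 6 were called lower (28.6%, against 7.96% of all genes). In the same list 2 were called higher (9.52%, near 9.81%), or 1 without replicate 2 of 8ss. The germ line helicase gene DDX4 was at -1.94 (adjusted p = 0.000237), while the RNA-binding protein genes TRIM71 (0.18) and IGF2BP3 (-0.15) were not called.

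Of 36 genes of epithelial junctions, keratins and basal adhesion (median -0.84), 17 were called lower (47.2%, against 7.96% of all genes). In this list 2 were called higher (5.56%, against 9.81%), or 1 without replicate 1 of 1ss, of 9ss or of 10ss. CLDN1, a tight junction protein, had 1460 to 2516 CPM early (median 1835) and 412 to 1051 CPM late (median 523). Its stage means held at 1793 to 1989 CPM from 1ss to 5ss and then dropped to 1185 at 6ss and 505 at 10ss, with no overlap of the pools (-1.58 ± 0.14, SE, adjusted p = 1.02e-12). CLDN2 was at 1.14 to 3.88 CPM early and at most 0.674 CPM late (-3.78, adjusted p = 2.35e-08). ITGA6, the laminin receptor subunit of basal epithelia, fell from 26.8 to 66.7 CPM (median 41.0) to 5.69 to 17.7 CPM (median 9.55) without overlap (-1.98 ± 0.19, SE, adjusted p = 2.43e-11). The keratins of simple epithelia KRT8 (-1.56), KRT7 (-1.35) and KRT18 (-1.30) fell, as did KRT24 (-1.28, from 494 to 753 CPM to 174 to 333 CPM), while KRT14, of stratified epithelia, rose by 1.45 (adjusted p = 0.00045) at levels of at most 4.67 CPM. Of all 19 keratin genes tested, 4 were called higher and 4 lower (21.1% each, against 9.81% and 7.96% of all genes), with a median of 0.31. The summed level of the 19 was 671 to 880 CPM early and 223 to 393 CPM late. SPINT1, an epithelial protease inhibitor, was not called (-0.19, adjusted p = 0.191).

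Of 25 non-neural ectoderm and placode genes (median -0.24), 9 were called lower (36%, against 7.96% of all genes) and 2 higher (8%, near 9.81%). GATA3 had 78.9 to 618 CPM early (median 226) and 37.2 to 128 CPM late (median 58.4). Its early means fell from 515 CPM at 1ss to 134 CPM at 3ss. The ranges overlapped, with the highest late value, 128 CPM, in replicate 1 of 10ss, apart from the other late libraries. The change was -2.28 ± 0.28 (SE, adjusted p = 7.34e-09). GATA2 fell from 11.5 to 34.6 CPM to 1.40 to 7.07 CPM without overlap (-2.10, adjusted p = 1.83e-09), and the placode factor FOXI3 by 1.53. DLX3 (1.09) and PITX1 (1.91) rose, PITX1 with its highest value, 56.0 CPM, in replicate 1 of 10ss. EYA2, a placode co-factor, was not called (-0.14, adjusted p = 0.445).

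**Figure D3:**
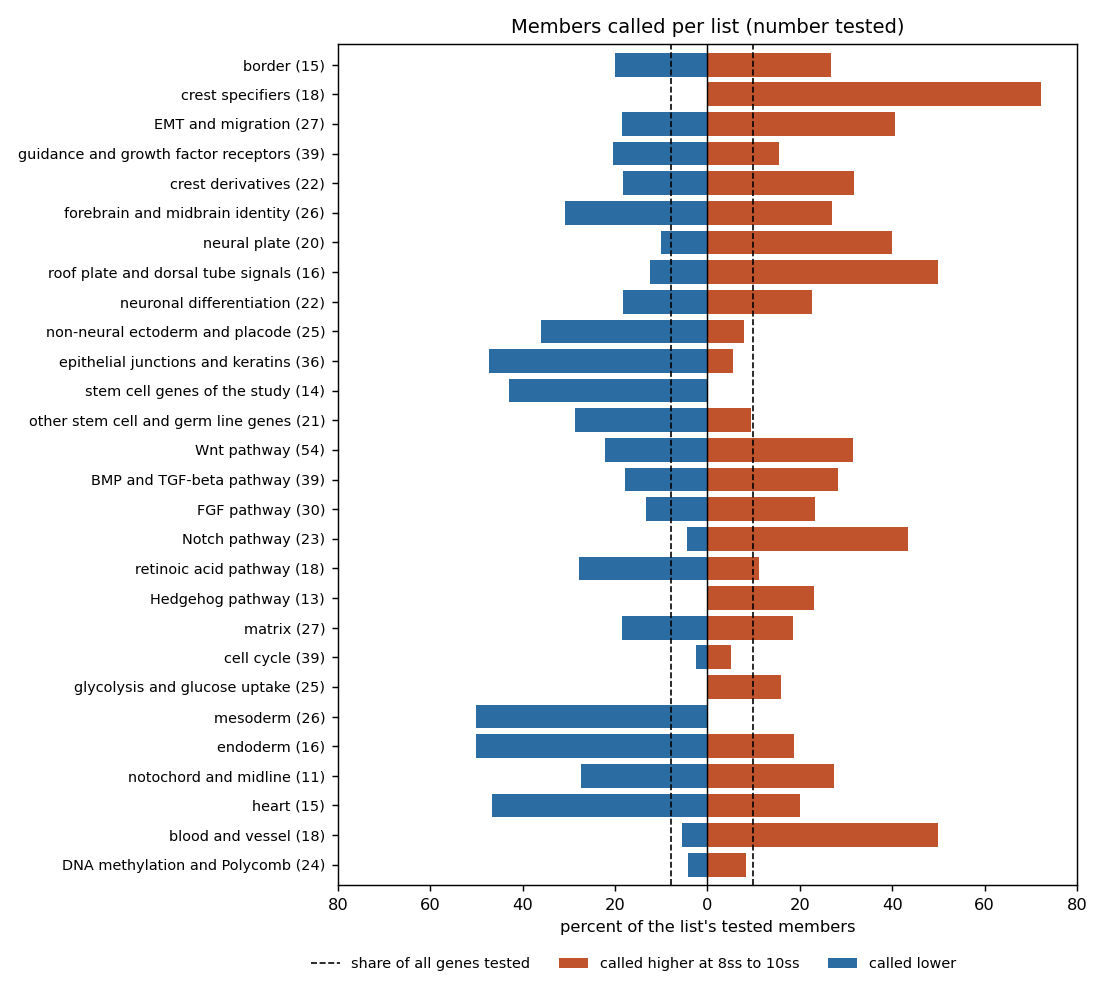
Percent of the tested members of each of 28 gene lists called higher (orange, to the right) or lower (blue, to the left) at 8ss to 10ss, with the number tested in brackets and dashed lines at the share of all 18525 genes (9.81% higher, 7.96% lower). Crest specifiers reach 72.2% on the right, and epithelial genes 47.2% and mesoderm genes 50% on the left.

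Markers of other cell types moved with the comparison, and their part in the other results was not tested. Of 26 mesoderm genes (median -0.93), 13 were called lower (50%, against 7.96% of all genes). None was called higher by edgeR or DESeq2, and 0 were higher at an unadjusted p below 0.05. The summed level of the 17 that are in no other list was 85.9 to 332 CPM early (median 147) and 21 to 97 CPM late (median 34). The highest early sum was in replicate 1 of 1ss and the highest late one in replicate 1 of 10ss. FOXC2, a forkhead factor of head and paraxial mesoderm, fell from 25.7 to 131 CPM (median 62.4) to 2.55 to 21.4 CPM (median 10.5) without overlap (-2.73 ± 0.36, SE, adjusted p = 5.06e-08). MEOX1, of the somites, fell by 1.99 (adjusted p = 6.58e-07), and TBXT, of the streak and notochord, was not called (-0.47, adjusted p = 0.35). Of the other genes that fell, TWIST1 and ALX1 are known from head mesoderm as well as from crest or ectoderm.

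Blood and vessel genes went the other way, with a median of 1.36. Of the 18, 9 were called higher (50%, against 9.81% of all genes) and 1 lower (5.56%, against 7.96%). The sum of 17 of them was 49.6 to 101 CPM at 8ss and 155 to 285 CPM at 10ss, beside 52.8 to 83.3 CPM in the early libraries. The highest was again replicate 1 of 10ss, where FLI1 made up 167 of the 285 CPM. FLI1 had 11.4 to 28.1 CPM early and 14.9 to 167 CPM late. CDH5, the cadherin of endothelium, had 0 to 0.356 CPM early and 1.10 to 9.26 CPM late (4.33, adjusted p = 8.73e-11), and TEK, the angiopoietin receptor, 0 to 1.42 CPM early and 2.19 to 13.7 CPM late (3.82, adjusted p = 7.02e-08). FLI1 (1.94), an Ets factor of vessels, and EGFL7 (1.60) rose, KDR, the VEGF receptor of angioblasts, fell (-1.09, adjusted p = 0.0036), and PECAM1 (0.23) and LMO2 (0.28) were not called.

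Of 16 endoderm genes (median -1.27), 8 were called lower (50%, against 7.96% of all genes) and 3 higher (18.8%, against 9.81%). However, CXCR4 and SOX18 (1.70), 2 of the 3 rises, are not particular to endoderm. The sum of the 10 genes in no other list was 47.7 to 203 CPM early and 30.2 to 86.1 CPM in 9 of the late libraries, with 697 CPM in replicate 2 of 8ss. TTR, the transport protein transthyretin of yolk sac and liver, made up 502 CPM of it. TTR rose by 4.01 (SE 0.75, adjusted p = 3.92e-05), or by 2.15 without that library. FOXA2 (-2.45), GATA6 (-1.66) and GATA5 (-3.41), transcription factors of endoderm, fell. Of 15 heart genes (median -1.03), 7 were lower (46.7%, against 7.96% of all genes) and 3 higher (20%, against 9.81%). The sum of 13 of these heart genes was 258 to 445 CPM early and 245 to 344 CPM late. It held 202 to 388 CPM and 218 to 312 CPM of TNNC1, a troponin, which was not called (0.03, adjusted p = 0.867). MYL3, a myosin light chain, fell from 13.2 to 22 CPM to 1.64 to 6.46 CPM (-2.36, adjusted p = 1.02e-12), and MEF2C, a factor of muscle, vessels and crest, rose from at most 0.574 CPM to 2.49 to 7.26 CPM (4.07, adjusted p = 1.4e-07). Of 11 notochord and midline genes (median 0.50), 3 rose and 3 fell (27.3% each, against 9.81% and 7.96% of all genes). NOTO (1.12) was among the rises.

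**Figure D4:**
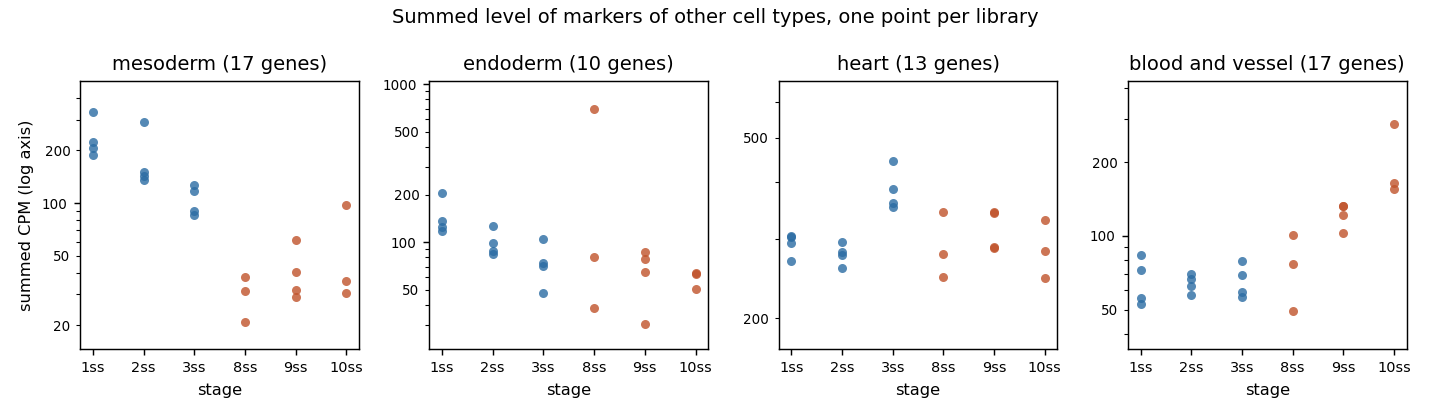
Summed CPM, on log axes, of the marker genes of mesoderm (17 genes), endoderm (10), heart (13) and blood and vessels (17) that are in no other list, with 1 point per library at 1ss to 3ss (blue) and 8ss to 10ss (orange). Mesoderm sums are at 85.9 to 332 CPM early and 21 to 97 CPM late, and 1 library of 8ss stands at 697 CPM for endoderm. The vessel sums of 10ss are above those of the other stages, and FLI1 makes up 167 CPM of the highest, 285 CPM.

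Without replicate 2 of 8ss and replicate 1 of 10ss, an alternative chosen after seeing the data, 1723 genes were called higher and 1478 lower, with 14 crest specifiers higher, 17 epithelial genes lower, 13 mesoderm genes lower and 9 vessel genes higher. Without the 4 libraries that stood apart on the second component, also chosen after seeing the data, 1575 genes were called higher and 1254 lower, with 13 crest specifiers higher, 17 epithelial genes lower and 11 mesoderm genes lower.

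Among 72 cytosolic ribosomal protein genes (median 0.16) and 71 oxidative phosphorylation subunits (median 0.06), none was called in either direction by edgeR or DESeq2. At an unadjusted p below 0.05, 4 ribosomal genes were higher and 3 lower, and 4 subunits were higher and 9 lower. Of 39 cell cycle genes, 2 were called higher (5.13%, against 9.81% of all genes) and 1 lower (2.56%, against 7.96%). When single libraries were left out, 1 to 4 were called higher and 0 to 2 lower. With no threshold on the fold, 4 were higher and 14 lower at an adjusted p below 0.05. Among all 18525 genes, these counts were 3026 and 2861 (31.8% together). The summed level was 8320 to 9816 CPM early and 6686 to 8443 CPM late (median log2 fold change -0.21). The cyclin gene CCNA1, among the largest falls of all genes (-5.47), is not in this list. CDK1, the mitotic kinase, had 1537 to 1863 CPM early and 1113 to 1669 CPM late (-0.34, adjusted p = 0.000368), below the fold threshold, and CDKN1A, an inhibitor of cyclin-dependent kinases, rose by 2.25 (adjusted p = 2.9e-05) from 0.409 to 3.30 CPM to 1.21 to 20.1 CPM. In glycolysis (median 0.35) 4 of 25 genes rose (16%, against 9.81% of all genes). No glycolysis gene was called lower by edgeR or DESeq2, and 4 were lower at an unadjusted p below 0.05. LDHA, a lactate dehydrogenase, had 50.7 to 378 CPM early (median 138) and 147 to 1063 CPM late (median 326), with overlap (1.34, adjusted p = 0.000642), and the lactate exporter SLC16A3 rose by 0.90 (adjusted p = 6.65e-06), whereas LDHB (0.29) and TPI1 (0.16) were not called. Of 24 genes of DNA methylation and Polycomb repression (median -0.05), 2 were higher (8.33%, near 9.81% of all genes) and 1 lower (4.17%, against 7.96%). When single libraries were left out, 1 to 3 were lower.

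The stages between the pools, which the fold changes did not use, show at which stages the levels of the dissected tissue changed. The dissected piece changed beyond 7ss, so time and dissection cannot be told apart between 7ss and the late pool. For each called gene with a mean of at least 1 CPM, each stage mean was placed on the log2 CPM scale between the early mean (0%) and the late mean (100%). The 979 genes that rose had a median position of 23.9% at 4ss, 48.8% at 5ss, 59.7% at 6ss and 67.6% at 7ss. The 970 genes that fell were at 22.7%, 36.2%, 66.8% and 81.4%. The 8ss libraries are part of the late mean, so their positions (94.3% and 95.8%) are near 100% by construction. Single 5ss libraries ranged from 22.6% to 67.4% for the rises and from 12.4% to 43.5% for the falls, and single 7ss libraries from 64.1% to 74.9% and from 60.9% to 91.7%, so on the log2 scale the order of rises and falls was within the spread of the libraries at both stages. On linear CPM the order at 5ss turned, to 33.5% for the rises and 48.6% for the falls. At 7ss it was 54.5% and 88.6% on linear CPM, and there the single libraries did not overlap (39.2% to 54.3% for the rises and 78.9% to 100% for the falls). Between the pools, linear CPM places a rise nearer its early mean and a fall nearer its late mean than log2 does. Part of the linear order thus comes from the scale, so it does not show whether falls came before rises. At 7ss, 81.8% of the genes that fell and 68.1% of those that rose were past the midpoint on the log2 scale.

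Single genes took different courses, placed here on the log2 scale only. WNT3A (62.2%), ETS1 (55.3%) and SOX10 (52.5%) were past the midpoint at 5ss, EN1 was at 45.3% at 5ss and 90.5% at 6ss, and CXCR4 was at 23.5% at 5ss and 74.7% at 6ss. In CPM, the 5ss libraries of WNT3A (11.1 to 68.4) and SOX10 (32.9 to 121) were still below every late library (from 150 and 215 CPM). Those of ETS1 (68.1 to 143 CPM) overlapped the late range (99.9 to 554 CPM). TFAP2B was at 61.1% at 4ss. SNAI2 had reached its late level by 4ss (105%) and stood at 219% at 6ss, and SOX9 stood at 177% at 6ss, so that both stood lower in the late pool than at 6ss. CYP26A1 (65.1%) and FST (63.2%) were still short of their late level at 7ss.

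**Figure D5:**
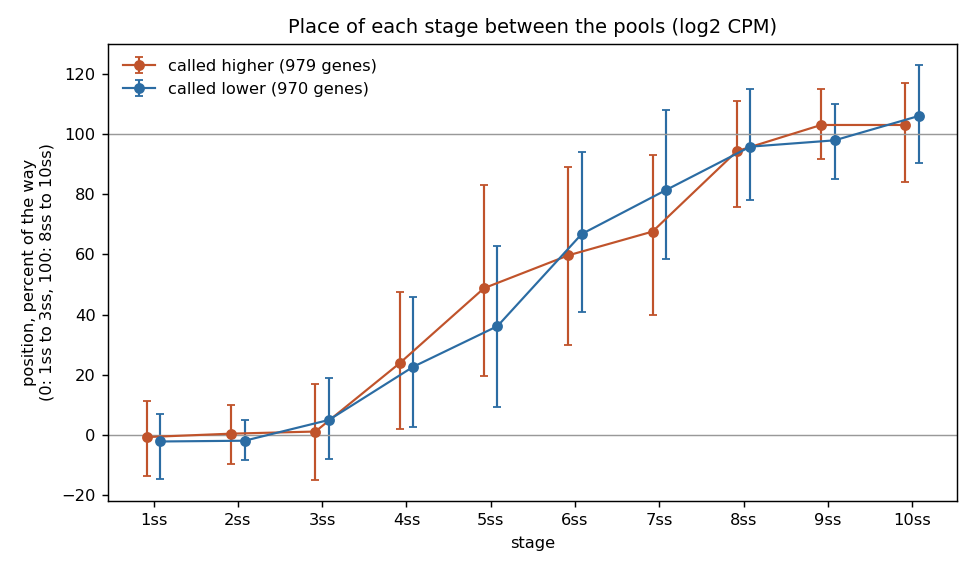
Median position of each stage mean between the mean of 1ss to 3ss (0%) and that of 8ss to 10ss (100%) on the log2 CPM scale, for the 979 genes called higher (orange) and the 970 called lower (blue) with a mean of at least 1 CPM; bars span the quartiles over genes. The stages of the pools define 0% and 100%, so their positions are near these values by construction. At 4ss the medians were 23.9% (rises) and 22.7% (falls), and at 7ss 67.6% and 81.4%.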

How the data were processed

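RNA was measured in 45 libraries of chick midbrain-level tissue from 12 stages. Libraries were made with an unstranded Nextera XT kit, so reads of a gene and of an antisense partner cannot be told apart, and they were sequenced as paired ends on separate runs that the labels do not assign to libraries. The authors mapped reads with STAR (2.7.2a) to GRCg6a, per the submitters' processing notes, and deposited raw counts of reads per gene for 24356 genes. They also deposited the 18525 genes that passed their filter (1 or more libraries with over 5 reads), and a scaled signal table whose values equal counts-per-million (CPM) after TMM scaling (largest relative difference 4.97e-15). Neither table carries a correction for unwanted variation, and none was applied here. Symbols came from the tables for 12245 of the filtered genes and from RefSeq (GRCg7b, names only) for 1157, and 5123 had none.

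Counts were fitted with edgeR 4.0.16 (limma 3.58.1, R 4.3.3), TMM factors and the quasi-likelihood test, after the filter above. All 45 libraries entered, in the pools HH5, HH6, 1ss to 3ss, 4ss to 6ss, 7ss and 8ss to 10ss, and the contrast was 8ss to 10ss minus 1ss to 3ss. Tables and figures were made with Python 3.11.15. The 22 compared libraries held 17509733 to 29744543 reads. Reads carry no molecular identifiers, so counting error understates the error of single libraries. Gene lists were described by counts and medians with no set test. Named were the 10 largest rises and falls with at least 5 CPM and no overlap, up to 4 called members a direction (mean of at least 1 CPM) and the 2 most abundant members not called per list, any border, crest specifier, EMT or study stem cell gene, and defining markers of other cell types. A gene at no more than 3 reads in every library of a pool was given no fold as a bound. The members and lists were chosen with earlier results of these data known. In simulated counts for this comparison (17820 genes), the test called 85% of genes changed 2-fold and 99% of those changed 4-fold, with 10 false calls. The simulated libraries were independent, and only genes with a mean above 1 CPM were changed. In the data, 838 of the called rises and 505 of the called falls had a mean below 1 CPM, which the recovery does not cover. Alternatives were DESeq2 1.42.0, a test against the fold threshold, other size factors, filters, samples and groupings, replicate blocks and leaving out libraries. A planned search of promoters was not run, and some genes of the lists are not reported here by name. Replicate numbers are those of the titles.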

Additional observations from a re-analysis of the deposited data

Results flagged for a closer look

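In 34 of 300 groups of libraries examined, 1 library lay apart from the rest by Dixon's criterion. Chance alone meets this criterion in about 1 group in 20. The groups were the late pool and, for some genes, single stages. The early pool was not examined as a group, so the flags do not compare the pools. Of the 34 flags, 11 were in replicate 1 of 10ss. That library had the highest late value of the endothelial and vessel genes CDH5 (9.26 CPM), PECAM1 (10.8) and FLI1 (167), of PITX1 (56.0), a homeobox factor of the head, of GATA3 (128), of the Wnt antagonist SFRP1 (30.7), and of the matrix and protease genes COL1A1 (74.0), SPON1 (22.5) and ADAM10 (291). It also had the highest late sum over all tested members of the mesoderm list (320 CPM) and of the blood and vessel list (290 CPM). The PITX1 values of the other late libraries began at 3.94 CPM, and the late median was 11.8 CPM.

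Replicate 2 of 8ss had the highest late value of TTR (502 CPM, beside a late median of 25.4), of EYA2 (31.1) and of NOXO1 (9.52), and the highest sum over all tested endoderm genes (1386 CPM). Replicate 1 of 8ss was lowest in CDH1 (2.97 CPM) and highest in NRP2 (21.8) and SOX5 (35.7). Replicate 3 of 8ss was highest in SOX10 (633 CPM) and LHX5 (3.9). Replicate 1 of 9ss was highest in COL5A1 (607 CPM), ID2 (6860), RXRG (38.6) and the sum of the crest specifiers (9022 CPM). ID2 is itself a member of that list and made up 6860 CPM of the sum. Replicate 3 of 10ss was highest in the lactate dehydrogenases LDHA (1063 CPM) and LDHB (7959) and in CLDN2 (0.674), and replicate 2 of 10ss in CDH8 (1.97). FOS was highest in replicate 2 of 9ss (0.701 CPM) and KLF4 in replicate 4 of 9ss (0.283 CPM). Within single stages, CXCR4 was high in replicate 4 of 3ss (79.4 CPM), EN1 in replicate 3 of 2ss (11.3) and SOX9 in replicate 1 of 4ss (11.5), and PAX7 was low in replicate 2 of 1ss (13.7). The cause of these values was not tested.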

How the results depend on the processing

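The 1817 rises and 1475 falls became 752 and 576 when edgeR (glmTreat) tested each change against the fold threshold itself, and 3026 and 2861 with an adjusted p below 0.05 and no threshold on the fold. Leaving out 1 library at a time gave 1731 to 1864 rises and 1385 to 1501 falls. DESeq2 gave 1786 and 1403, DESeq2 size factors in edgeR 1886 and 1417, no filter 1921 and 1454, a filter by expression (filterByExpr) 1562 and 1326, the 22 libraries alone 1762 and 1432, and separate stages 1676 and 1517. Leaving out every library numbered 4 in the column names, replicate 3 of 10ss among them, gave 1651 and 1217. Replicate numbers recur between stages, but not every same-numbered pair of an early and a late library deviated together (correlations from -0.25 to 0.254, beside -0.386 to 0.483 for pairs of different number; over 0.1 in 5 of 9 pairs of number 1), so the numbers were not taken as a pairing. With a replicate block, 1741 genes rose and 1380 fell (numbers of the titles) or 1823 and 1438 (numbers in the column names). Within the early pool, the libraries numbered 4 did deviate together (0.586 to 0.593). Of 208 genes named with values, GLI2 and HOXB1 not counted, 155 were called, and none changed direction when called. All but SOX2 kept their call in each of the 22 fits without 1 library. Tested against the fold threshold, EMT and migration genes called higher went from 11 to 4, Notch genes from 10 to 4 and BMP genes from 11 to 4. Crest specifiers called higher stayed at 13, and epithelial genes called lower went from 17 to 13. CDH1, CDH2, TNC, VIM and ZEB1 were among the genes that lost their call in that test. The 27 lost against the fold threshold apart, the calls lost under other alternatives were those of SOX2, of CDH6 without the libraries numbered 4 (-0.73), and of KDR (-0.79) and KLF4 (-1.26) without replicate 3 of 8ss and the 3 early libraries numbered 4, an alternative chosen after seeing the data. Calls gained were those of LIN28A with separate stages (-0.76), and, under alternatives chosen after seeing the data, of LIN28A (-0.80) and ADAM12 (-0.81) without those same 4 libraries and of ZEB2 without replicate 2 of 8ss and replicate 1 of 10ss (-0.77). The cause was not tested. The gap between the pools on the first component was 74.2% of its range, and 60.3% with all genes. On linear CPM, genes that rose were placed at 12.6% at 4ss, 43.3% at 6ss and 54.5% at 7ss, and genes that fell at 34.0% at 4ss and 79.3% at 6ss. Depth limits low genes: 3 reads were worth 0.13 CPM on average in an early and 0.133 CPM in a late library, and the early values of KLF4, FOXD3 and NR2F1 rest on few reads.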

Other observations

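Of 269 genes of solute carriers, a family of membrane transporters, 24 were called higher (8.92%, against 9.81% of all genes) and 31 lower (11.5%, against 7.96%), with a median log2 fold change of 0.05 and all adjusted p-values from edgeR's quasi-likelihood test. SLC43A3, a nucleobase carrier, rose from 7.83 to 12.9 CPM (median 10.0) to 20.1 to 35.1 CPM (median 26.4). Its pools did not overlap and its stage mean was 11.4 CPM at 5ss, 15.8 at 6ss and 19.4 at 7ss (1.42 ± 0.12, SE, adjusted p = 6.66e-13). SLC39A8, a zinc and manganese importer, fell from 8.64 to 22.2 CPM (median 18.2) to 1.87 to 6.92 CPM (median 3.54), also without overlap (-2.16 ± 0.23, SE, adjusted p = 1.26e-10). The mitochondrial ADP/ATP carriers SLC25A6 (-0.07, SE 0.07) and SLC25A5 (-0.15, SE 0.12) were not called.

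Of 17 tetraspanin genes, which encode membrane scaffold proteins, 1 was called higher (5.88%, against 9.81% of all genes) and 4 lower (23.5%, against 7.96%), with a median of -0.01. TSPAN7 rose from 6.48 to 16.1 CPM (median 10.7) to 24.8 to 39.8 CPM (median 30.2), and TSPAN13 fell from 358 to 561 CPM (median 456) to 196 to 269 CPM (median 217). Neither gene's pools overlapped. The TSPAN7 change was 1.62 ± 0.14 (SE, adjusted p = 1.09e-12) and the TSPAN13 change -1.05 ± 0.12 (SE, adjusted p = 6.31e-10), while TSPAN3 passed the adjusted p and not the fold threshold (0.61, adjusted p = 0.000191).

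Of 33 forkhead genes, 5 were called higher (15.2%, against 9.81% of all genes) and 8 lower (24.2%, against 7.96%), with a median of -0.15. Besides FOXD3, the rises included FOXI2, which went from 0.472 to 3.66 CPM (median 1.09) to 7.77 to 27.7 CPM (median 10.3) without overlap (3.45 ± 0.29, SE, adjusted p = 3.47e-13). FOXJ1, a factor of motile cilia, fell from 2.05 to 5.32 CPM to 0.453 to 2.55 CPM (-1.20, adjusted p = 0.000202). FOXO3 (-0.05) and FOXM1 (-0.17) were not called.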
